A study of Mus musculus with 2 samples.

Results

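Cholesterol and fatty acid metabolism genes were examined in mouse haematopoietic progenitors transformed by Hoxa9 and Meis1, with and without treatment that lowers Cebpa, the gene of the myeloid transcription factor C/EBPα. The set held 51 genes taken by name from the deposited table, and all 51 matched 1 row each of the 23309 rows. They were divided by role into 6 groups: SREBP regulation, cholesterol synthesis, fatty acid synthesis with elongation and desaturation, lipid storage with lipolysis and fatty acid binding, sterol efflux, and fatty acid oxidation.

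Cells received 5 nM 4-hydroxytamoxifen (4OHT) for 72 h or, for comparison, ethanol, its vehicle, for the same time. Cells of both conditions carried loxP-flanked Cebpa alleles (genotype Cebpaf/f;CreER) and CreER, a Cre recombinase that 4OHT activates. All came from lineage-depleted bone marrow, were given the retroviruses MIGR1-HA-Hoxa9, for tagged Hoxa9, and MIGR1-Flag-Meis1, for tagged Meis1, and grew with interleukin-3. The sources used here name neither the promoter that drives CreER nor the age of the mice. No sample without CreER or without the loxP sites was analysed here, so lower Cebpa, exposure to 4OHT and Cre activity cannot be told apart. Each condition was deposited as 1 sample in which 2 replicates are joined. Every gene therefore had a single value in 4OHT cells and in vehicle cells, with no spread between replicates.

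Cells obtain cholesterol and fatty acids by making them from acetyl-CoA or by taking them up. SREBP transcription factors switch on the synthesis genes when membrane sterol is low, under the control of Scap, which escorts them to the Golgi, and the Insig proteins, which hold them back. Surplus fatty acid and sterol are esterified and kept in lipid droplets, from which lipases release them again, and fatty acids are burned in mitochondria. In the myeloid lineage, lipid droplets and scavenger uptake are best known from macrophages.

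Levels are in FPKM, a fragment count scaled to transcript length and to the depth of the library, so that levels of different genes can be set side by side. A gene was called, and is said to have risen or fallen, where the authors' deposited table gave the status OK and a q (a p-value adjusted over all tested rows) under 0.05. The smallest q there was 0.00165, shared by 363 called rows, so genes with that q are not ranked by it. Ratios of groups are given as log2((4OHT FPKM + 1)/(vehicle FPKM + 1)), a scale that understates the change of low genes. Cebpa itself stood at 42.8 FPKM in 4OHT cells and 109 FPKM in vehicle cells, or 39.2% of vehicle, and its q was 0.00165 in the authors' deposited table. The transcript was thus depleted in part, and the position of the loxP sites is not known here.

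Of the 49 lipid genes that were tested, 9 fell and 1 rose after 4OHT in the authors' deposited table. Across all 11953 tested rows, 5.91% were called, with 3.11% lower and 2.80% higher. Among the 9 falls, 7 were genes of lipid storage and lipolysis, 1 was a gene of cholesterol synthesis and 1 a desaturase of fatty acids. SREBP regulation and fatty acid oxidation held no called gene. Acacb and Hmgcs1 were not tested by the authors. The median ratio of the 47 members that reached 1 FPKM in either condition was -0.11, beside 0.00031 for the 10989 rows of the table that did so. RNA taken from many cells together cannot tell fewer cells of a type from less RNA per cell, which holds for every difference given here.

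**Figure D1:**
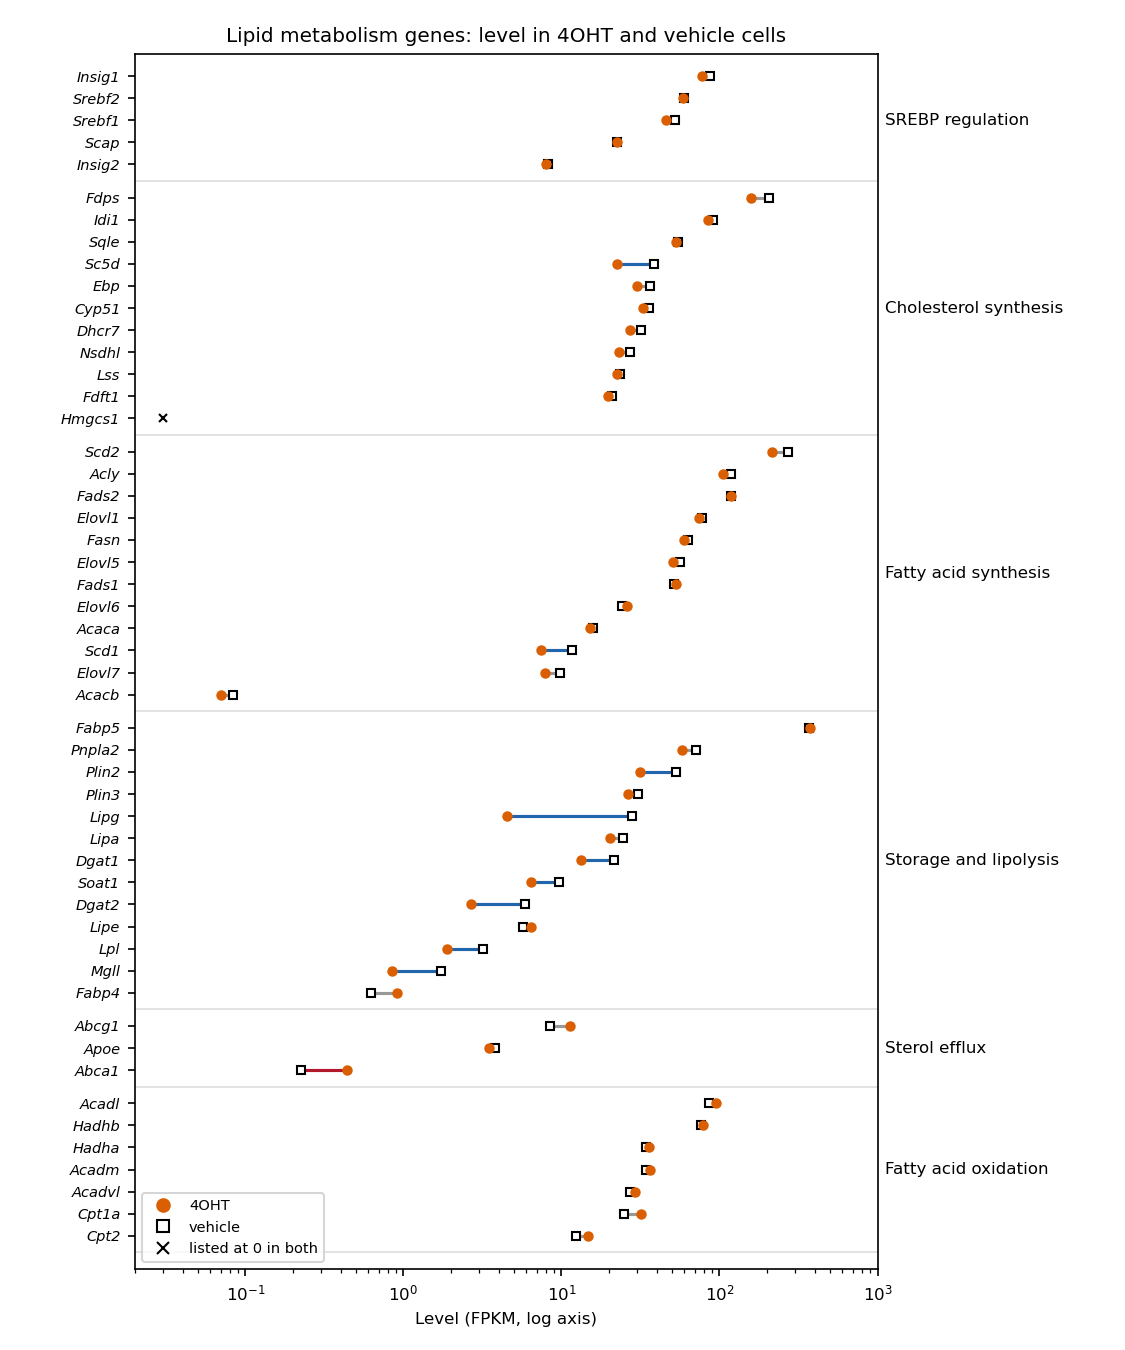
Level of each of the 51 lipid metabolism genes in FPKM on a log axis, with 4OHT cells as filled circles and vehicle cells as open squares, 1 value each, and lines coloured blue for genes called lower, red for higher and grey for the rest. Most pairs of symbols overlap, while Lipg stood at 4.53 FPKM in 4OHT cells and 28.0 FPKM in vehicle cells.

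Genes of lipid storage and lipolysis held most of the falls. Of 13 members, all tested, 7 fell, none rose and 6 were not called. The median ratio of the 12 that reached 1 FPKM was -0.53. The 7 falls ran between 1.497-fold and 6.19-fold. The levels of all 13 members summed to 545 FPKM in 4OHT cells and 621 FPKM in vehicle cells, sums in which the uncalled Fabp5 has the largest share.

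The 3 member enzymes that carry out the last esterification step of storage lipids fell. Dgat2, which makes triglyceride from diacylglycerol, had 2.66 FPKM in 4OHT cells and 5.91 FPKM in vehicle cells, 2.22-fold lower, with q = 0.00165 in the authors' deposited table (mm9 chromosome 7, 106302173 to 106331223). Its unrelated counterpart Dgat1, which catalyses the same step, had 13.3 FPKM in 4OHT cells and 21.4 FPKM in vehicle cells, 1.61-fold lower, with q = 0.00444 in the authors' deposited table (chromosome 15, 76332445 to 76342248). Soat1, which forms cholesteryl esters, had 6.41 FPKM in 4OHT cells and 9.60 FPKM in vehicle cells, 1.497-fold lower, with q = 0.0182 in the authors' deposited table. Gpam, which starts glycerolipid synthesis and is on the list of other storage genes, had 7.57 FPKM in 4OHT cells and 8.34 FPKM in vehicle cells and was not called.

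Of the member coat proteins of the droplet, Plin2 was called and Plin3 was not, and both had the lower value in 4OHT cells. Plin2, the perilipin that covers droplets in most cell types, fell to 31.3 FPKM in 4OHT cells, against 52.7 FPKM in vehicle cells, 1.68-fold lower, with q = 0.00165 in the authors' deposited table (mm9 chromosome 4, 86302469 to 86315963). Plin3, a perilipin found free in the cytosol and on nascent droplets, had 26.5 FPKM in 4OHT cells and 30.5 FPKM in vehicle cells and was not called. Plin2 was the more abundant of the pair in both conditions, by a smaller margin after 4OHT.

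Among lipases, those that act at the cell surface or in the blood vessel wall fell. Lipg, endothelial lipase, which cleaves phospholipids of high-density lipoprotein, had 4.53 FPKM in 4OHT cells and 28.0 FPKM in vehicle cells, 6.19-fold lower, with q = 0.00165 in the authors' deposited table. By fold it ranked at place 17 of the 339 called falls of at least 1 FPKM in the whole table, while the other 8 members that fell ranked at place 124 or lower. Lpl, lipoprotein lipase, which frees fatty acids from circulating triglyceride, had 1.88 FPKM in 4OHT cells and 3.21 FPKM in vehicle cells, 1.70-fold lower, with q = 0.0167 in the authors' deposited table. Lipg was the more abundant of these 2 secreted lipases in either condition.

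Of the lipases that empty droplets inside the cell, the last in the chain fell and the others were not called. Mgll, which splits monoglyceride, had 0.847 FPKM in 4OHT cells and 1.73 FPKM in vehicle cells, 2.05-fold lower, with q = 0.00444 in the authors' deposited table. Pnpla2, adipose triglyceride lipase, which takes the first fatty acid off a triglyceride, had 57.9 FPKM in 4OHT cells and 71.4 FPKM in vehicle cells. Lipe, hormone-sensitive lipase, which acts next, had 6.45 FPKM in 4OHT cells and 5.72 FPKM in vehicle cells. Lipa, the acid lipase of lysosomes, had 20.4 FPKM in 4OHT cells and 24.6 FPKM in vehicle cells. Pnpla2 was the most abundant of the 4, and Mgll, the called one, the least.

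Fatty acid binding proteins carry fatty acids through the cytosol, and neither listed gene was called. Fabp5 was the highest of all 51 genes, with 372 FPKM in 4OHT cells and 366 FPKM in vehicle cells. Its neighbour Fabp4, typical of adipocytes and macrophages, had 0.915 FPKM in 4OHT cells and 0.620 FPKM in vehicle cells. Fabp5 thus exceeded Fabp4 by 406-fold in 4OHT cells and 590.1-fold in vehicle cells.

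Other genes of storage, lipolysis and uptake, taken from textbook membership of these pathways, were fewer in change. Of 18 listed, 10 were tested, 2 fell and none rose, and the median ratio of the 9 that reached 1 FPKM was 0.04. Abhd5, the activator of Pnpla2 and the most abundant of that list in vehicle cells, had 15.5 FPKM in 4OHT cells and 26.7 FPKM in vehicle cells, 1.73-fold lower, with q = 0.00165 in the authors' deposited table. Cd36, a scavenger receptor that takes up fatty acids and oxidised lipoprotein, had 2.58 FPKM in 4OHT cells and 5.72 FPKM in vehicle cells, 2.22-fold lower, with the same q of 0.00165 in the authors' deposited table. Agpat2, which builds phosphatidic acid, became the highest of the list after 4OHT, with 21.0 FPKM in 4OHT cells and 20.5 FPKM in vehicle cells, and was not called. The 2 falls were thus an activator of lipolysis and a receptor for uptake, and the other 8 tested genes of the list were not called.

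**Figure D2:**
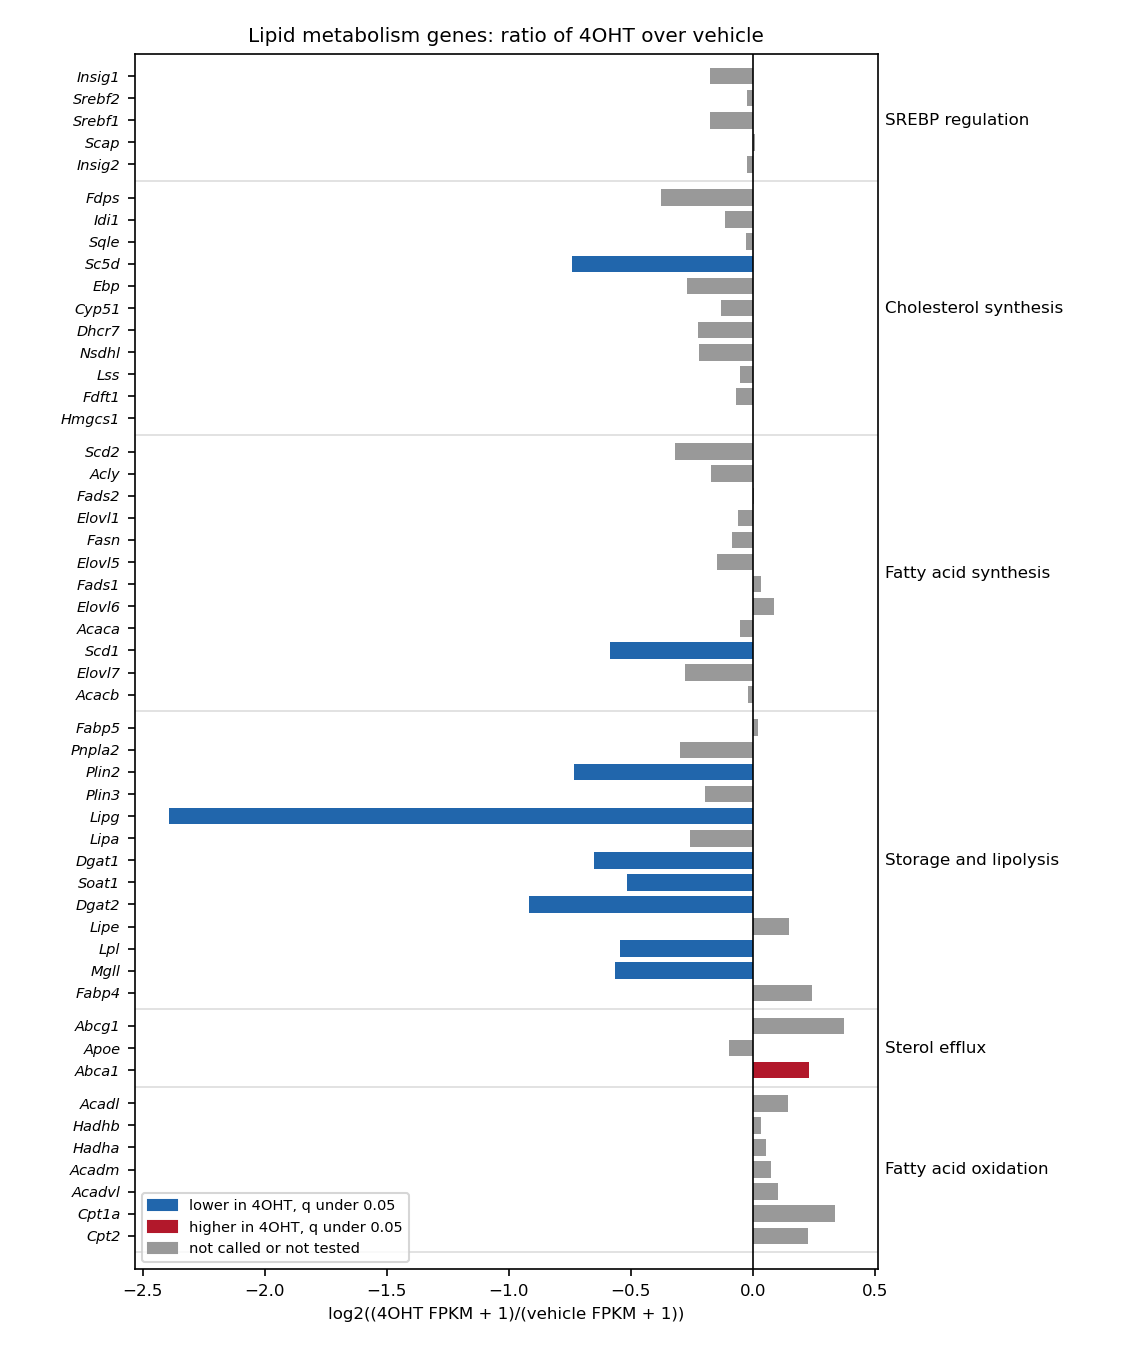
Ratio of 4OHT over vehicle cells for each of the 51 genes on the log2(FPKM + 1) scale, as bars coloured by the call in the authors' deposited table. Of the 9 blue bars, 7 lie in the storage and lipolysis group, and all 7 bars of fatty acid oxidation point to the right without a call.

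Promoter sequences are shown for the called members that held a motif from the search described here, a choice made after the matches were seen, and they include falls and the single rise. RefSeq promoters of the build GRCm38.p6 run over 300 bases, 250 before and 50 after each transcription start, and 38 of the 51 members had at least 1 entry, 50 entries in all. The sterol regulatory element core TCACNCCAC, a C/EBP motif TTGCNNAA and the E-box CACGTG, which SREBP and other basic helix-loop-helix factors bind, were searched on both strands. None of the 13 matches in member promoters overlapped a match of another motif. Of the 9 members that fell, 4 had an entry, and of these 3 held the E-box, with none holding either of the other 2 motifs. The single riser, Abca1, held an E-box too, as did the uncalled members Dhcr7, Elovl5, Insig1, Lipe and Scap. Over all 32851 promoters, 7.15% held the E-box, 10.8% the C/EBP motif and 1.24% the sterol element, and over the 50 member entries 20%, 4% and 2% did. The sterol element was found in the promoter of Hmgcs1, and the C/EBP motif in those of Dhcr7 and Nsdhl. A match describes letters in the reference and is neither a bound site nor a cause. The promoters of the 4 called genes with an E-box read as follows, on the strand of the gene, with CACGTG in capitals.
Plin2 (chr4:86670010-86670309, minus strand): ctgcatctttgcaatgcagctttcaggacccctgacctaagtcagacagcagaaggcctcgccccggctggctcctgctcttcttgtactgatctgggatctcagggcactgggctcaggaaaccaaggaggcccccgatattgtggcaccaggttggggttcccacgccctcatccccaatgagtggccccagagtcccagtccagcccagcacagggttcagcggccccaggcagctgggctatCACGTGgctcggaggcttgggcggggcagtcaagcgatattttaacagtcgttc
Mgll (chr6:88724162-88724461, plus strand): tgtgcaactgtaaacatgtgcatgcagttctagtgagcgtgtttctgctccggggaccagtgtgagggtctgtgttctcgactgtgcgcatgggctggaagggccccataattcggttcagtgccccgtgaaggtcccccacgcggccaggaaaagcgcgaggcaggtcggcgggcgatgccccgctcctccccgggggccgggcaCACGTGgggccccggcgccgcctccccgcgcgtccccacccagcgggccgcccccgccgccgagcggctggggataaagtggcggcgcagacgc
Sc5d (chr9:42264251-42264550, minus strand): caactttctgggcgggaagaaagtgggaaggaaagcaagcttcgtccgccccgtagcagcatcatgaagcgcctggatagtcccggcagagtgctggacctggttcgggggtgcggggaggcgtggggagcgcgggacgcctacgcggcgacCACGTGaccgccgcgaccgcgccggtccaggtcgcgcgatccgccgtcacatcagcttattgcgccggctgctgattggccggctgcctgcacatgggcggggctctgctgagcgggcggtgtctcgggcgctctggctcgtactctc
Abca1 (chr4:53159846-53160145, minus strand): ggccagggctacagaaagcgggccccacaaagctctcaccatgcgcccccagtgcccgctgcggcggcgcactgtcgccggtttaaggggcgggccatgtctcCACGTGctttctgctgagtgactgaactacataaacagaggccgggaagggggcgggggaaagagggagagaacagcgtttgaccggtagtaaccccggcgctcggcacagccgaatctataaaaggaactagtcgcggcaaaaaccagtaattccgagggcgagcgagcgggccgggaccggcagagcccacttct
The E-box began 4 bases before the start in Plin2, 44 before it in Mgll, 98 before it in Sc5d and 147 before it in Abca1.

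Cholesterol synthesis held 1 call, the fall of Sc5d, and small ratios below 0 in the rest of its measured genes. Of 11 members 10 were tested, 1 fell, none rose and 9 were not called. All 10 that reached 1 FPKM had a ratio below 0, and their median was -0.18, beside 49.9% of the measured rows of the table (5484 of 10989) with a ratio below 0. These genes share regulators, so the count of 10 does not stand for 10 independent measurements.

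The fall was in the late part of the pathway, which turns lanosterol into cholesterol. Sc5d, a sterol desaturase close to the end of that route, had 22.5 FPKM in 4OHT cells and 38.3 FPKM in vehicle cells, 1.70-fold lower, with q = 0.00165 in the authors' deposited table (mm9 chromosome 9, 42062260 to 42072383). Its promoter with the E-box is printed above. Dhcr7, the reductase that uses the product of Sc5d, had 27.0 FPKM in 4OHT cells and 31.7 FPKM in vehicle cells. Ebp, the sterol isomerase just before Sc5d, had 30.0 FPKM in 4OHT cells and 36.4 FPKM in vehicle cells. Neither neighbour of Sc5d in the pathway was called.

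Earlier steps after lanosterol differed less. Cyp51, which demethylates lanosterol, had 32.6 FPKM in 4OHT cells and 35.9 FPKM in vehicle cells. Nsdhl, which takes part in removing further methyl groups, had 23.2 FPKM in 4OHT cells and 27.2 FPKM in vehicle cells. These genes were not called, and of these 5 late enzymes Sc5d was the lowest in 4OHT cells and the highest in vehicle cells.

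Of the members that build the sterol skeleton, none was called. Fdps, farnesyl diphosphate synthase, was the most abundant gene of the group, with 159 FPKM in 4OHT cells and 207 FPKM in vehicle cells, 1.299-fold lower, with q = 0.204 in the authors' deposited table. Idi1, which isomerises the building block that Fdps uses, had 84.6 FPKM in 4OHT cells and 91.5 FPKM in vehicle cells. Fdft1, squalene synthase, had 19.7 FPKM in 4OHT cells and 20.7 FPKM in vehicle cells. The uncalled members stood between 77.0% and 98.0% of their vehicle level, and those that handle squalene were at the upper end of that range. Sqle, squalene epoxidase, had 53.4 FPKM in 4OHT cells and 54.5 FPKM in vehicle cells. Lss, which closes the rings to give lanosterol, had 22.5 FPKM in 4OHT cells and 23.3 FPKM in vehicle cells. Hmgcs1, the synthase at the head of the pathway, was listed at 0 in both conditions on an unlocalised scaffold of mm9, so its row gives no level.

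Other genes of cholesterol synthesis also had ratios below 0, and none was called. Of 12 listed, 11 were tested, with 2 at an unadjusted deposited p under 0.05. All 11 that reached 1 FPKM had a ratio below 0, with a median of -0.14, and stood between 68.4% and 96.6% of the vehicle level. Lbr, a sterol reductase of the nuclear envelope and the highest of them, had 109 FPKM in 4OHT cells and 113 FPKM in vehicle cells. Pmvk, phosphomevalonate kinase, was nearest to a call, with 16.3 FPKM in 4OHT cells and 23.8 FPKM in vehicle cells and q = 0.0667 in the authors' deposited table. The 10 genes of sterol uptake and transport held no call and 1 gene at an unadjusted deposited p under 0.05. Their median ratio was -0.02, and 0.0062 when both conditions were scaled to the same FPKM sum. Npc2, which moves cholesterol out of lysosomes, was their highest, with 112.7 FPKM in 4OHT cells and 113.7 FPKM in vehicle cells.

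The regulators of SREBP activity held no call. None of the 5 had an unadjusted deposited p under 0.05 either, and their median ratio was -0.02. Srebf2, which mainly drives cholesterol genes, had 58.6 FPKM in 4OHT cells and 59.6 FPKM in vehicle cells. Srebf1, which mainly drives fatty acid genes, had 45.9 FPKM in 4OHT cells and 52.0 FPKM in vehicle cells. Scap had 22.4 FPKM in 4OHT cells and 22.3 FPKM in vehicle cells. The Insig genes differed in level more than in change, and Insig1 is itself a classic SREBP target. Insig1 had 77.4 FPKM in 4OHT cells and 87.5 FPKM in vehicle cells, and Insig2 8.03 FPKM in 4OHT cells and 8.18 FPKM in vehicle cells. The list of nuclear receptors that sense lipid and their partners also holds Mlx and Mlxipl, which are not nuclear receptors. It held no call either, among 7 tested of 11 listed, with a median ratio of -0.10 over 5 that reached 1 FPKM. Only Mlx had an unadjusted deposited p under 0.05, with 21.7 FPKM in 4OHT cells and 30.2 FPKM in vehicle cells. Rxrb, a shared partner of the receptors, was the highest of the list, with 51.3 FPKM in 4OHT cells and 49.4 FPKM in vehicle cells.

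Fatty acid synthesis changed in 1 desaturase. Of 12 members 11 were tested, 1 fell, none rose and 10 were not called, and the median ratio of those that reached 1 FPKM was -0.08. Scd1, a stearoyl-CoA desaturase that makes monounsaturated fatty acids, had 7.38 FPKM in 4OHT cells and 11.6 FPKM in vehicle cells, 1.57-fold lower, with q = 0.0101 in the authors' deposited table (mm9 chromosome 19, 44468940 to 44482199). Scd2, the neighbouring paralog with the same activity, had 216 FPKM in 4OHT cells and 269.7 FPKM in vehicle cells, 1.25-fold lower, with q = 0.432 in the authors' deposited table. Scd2 exceeded Scd1 by 29.3-fold in 4OHT cells and 23.3-fold in vehicle cells, so the called fall concerned the minor of these 2 desaturases. The paralogs are alike in sequence, and how reads matching both were counted is not stated in the sources used.

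The enzymes that supply and build the fatty acid chain held no call. Acly, which makes acetyl-CoA from citrate, had 105 FPKM in 4OHT cells and 119 FPKM in vehicle cells. Acaca, the acetyl-CoA carboxylase of synthesis, had 15.1 FPKM in 4OHT cells and 15.7 FPKM in vehicle cells, and its mitochondrial relative Acacb 0.0697 FPKM in 4OHT cells and 0.0834 FPKM in vehicle cells. Fasn, fatty acid synthase, had 59.4 FPKM in 4OHT cells and 63.0 FPKM in vehicle cells. Acacb was thus close to absent beside Acaca.

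Elongases and desaturases of longer chains showed no call. Elovl1, which extends saturated chains, was the highest elongase, with 74.6 FPKM in 4OHT cells and 77.8 FPKM in vehicle cells. Elovl5, which extends polyunsaturated chains, had 50.9 FPKM in 4OHT cells and 56.5 FPKM in vehicle cells, and Elovl6, which extends the products of Fasn, 25.8 FPKM in 4OHT cells and 24.3 FPKM in vehicle cells. Elovl7 had 7.89 FPKM in 4OHT cells and 9.77 FPKM in vehicle cells, the largest relative difference of the 4 elongases. Fads1 and Fads2, neighbouring desaturases of polyunsaturated chains, were nearly equal between conditions. Fads1 had 52.7 FPKM in 4OHT cells and 51.4 FPKM in vehicle cells, and Fads2 118.0 FPKM in 4OHT cells and 117.8 FPKM in vehicle cells. In the list of other synthesis and activation genes, 11 of 15 were tested, none was called or had an unadjusted deposited p under 0.05, and the median ratio was 0.01. Tecr, a reductase of the elongation cycle, was its highest gene, with 231.6 FPKM in 4OHT cells and 229.7 FPKM in vehicle cells.

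Sterol efflux held the single rise. Abca1, which loads cholesterol onto apolipoprotein, had 0.439 FPKM in 4OHT cells and 0.225 FPKM in vehicle cells, 1.95-fold higher, with q = 0.0285 in the authors' deposited table. Both values were below 1 FPKM, so the call does not stand with a minimum of 1 FPKM. Abcg1, which passes cholesterol to high-density lipoprotein, had 11.3 FPKM in 4OHT cells and 8.51 FPKM in vehicle cells, 1.33-fold higher, with q = 0.180 in the authors' deposited table. Apoe, the apolipoprotein that accepts such cholesterol, had 3.47 FPKM in 4OHT cells and 3.79 FPKM in vehicle cells and was not called.

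Fatty acid oxidation genes were not called, and the 7 had ratios above 0. They stood between 102.4% and 127% of the vehicle level, with a median ratio of 0.10, and 1 had an unadjusted deposited p under 0.05. Cpt1a, the gate of fatty acid entry into mitochondria, had 31.8 FPKM in 4OHT cells and 25.0 FPKM in vehicle cells, with q = 0.291 in the authors' deposited table. Cpt2, which completes that entry, had 14.6 FPKM in 4OHT cells and 12.4 FPKM in vehicle cells. The carnitine shuttle pair showed the largest differences of the group.

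The dehydrogenases of the oxidation cycle differ in the chain length they accept. Acadl, for long chains, had 95.5 FPKM in 4OHT cells and 86.3 FPKM in vehicle cells. Acadm, for medium chains, had 36.2 FPKM in 4OHT cells and 34.3 FPKM in vehicle cells, and Acadvl, for very long chains, 29.1 FPKM in 4OHT cells and 27.0 FPKM in vehicle cells. Hadha and Hadhb, the subunits of the trifunctional protein that runs the later steps, lie next to each other. Hadha had 35.8 FPKM in 4OHT cells and 34.5 FPKM in vehicle cells, and Hadhb 78.2 FPKM in 4OHT cells and 76.4 FPKM in vehicle cells. The shared direction did not carry over to the list of other oxidation genes, where 6 of 15 that reached 1 FPKM had a ratio above 0 and 9 below it, with a median of -0.03, and 7 lay above 0 when both conditions were scaled to the same FPKM sum. None of its 16 tested genes was called and 2 had an unadjusted deposited p under 0.05. Etfb, an electron carrier subunit, was the highest there, with 222 FPKM in 4OHT cells and 203 FPKM in vehicle cells.

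**Figure D3:**
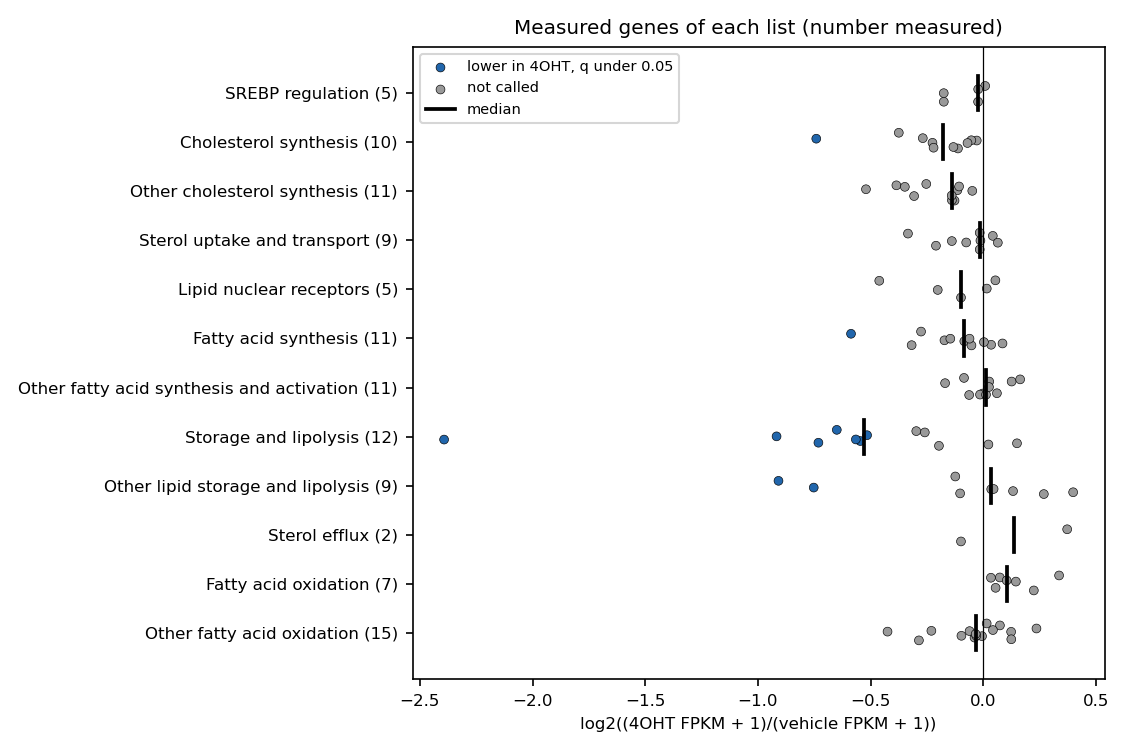
Ratio of 4OHT over vehicle cells on the log2(FPKM + 1) scale for genes of at least 1 FPKM in either condition, by role group and by list of other pathway genes, with medians as bars. The storage and lipolysis group has its median at -0.53, and every point of the 2 cholesterol synthesis lists lies left of 0.

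How small a change the table could call sets the limit on the uncalled genes. Between 20 and 100 FPKM in the higher condition, 84 of 97 tested rows with a change of 1.5-fold to 2-fold were called (86.6%). At that level 45 of 177 with 1.3-fold to 1.5-fold were called (25.4%), and 0 of 3410 below that. Other levels did less well at 1.5-fold to 2-fold, with 33.7% called between 1 and 5 FPKM, 82.4% between 5 and 20 FPKM and 68.3% from 100 FPKM. Of the 39 tested members without a call, 37 changed by less than 1.3-fold, and the largest change among those of at least 1 FPKM was 1.33-fold. Changes of that size were mostly not detectable here, and a missing call does not show that a gene stayed level.

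**Figure D4:**
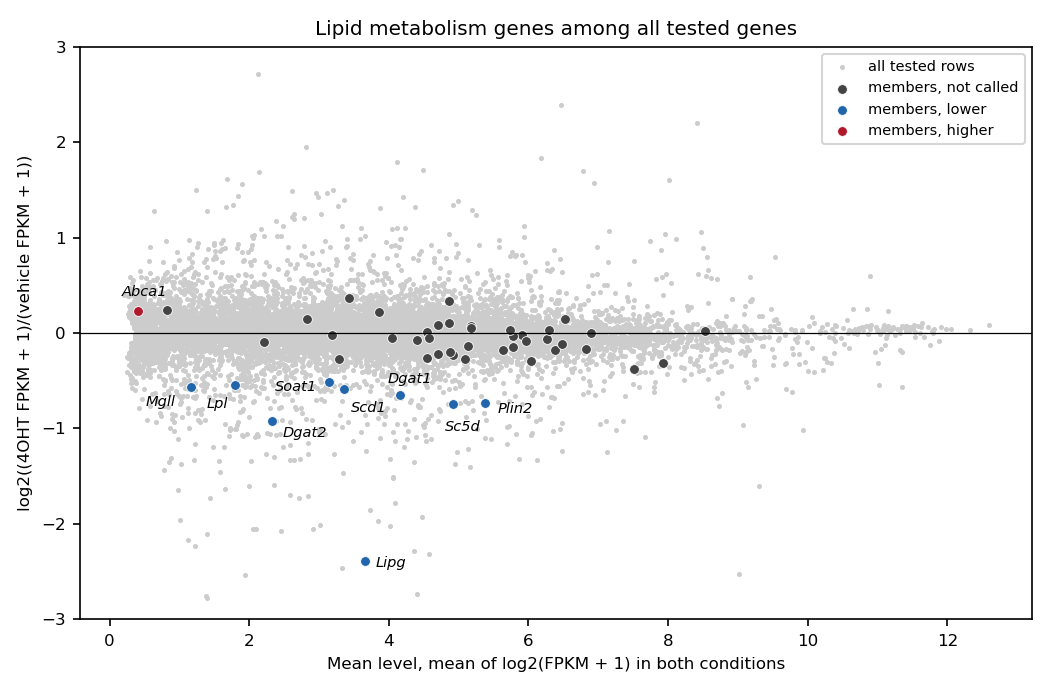
Ratio of 4OHT over vehicle cells against the mean level, both on the log2(FPKM + 1) scale, for all tested rows (grey, with 26 rows beyond the drawn range) and the 49 tested members (larger points). The 9 members that fell lie along the lower edge of the cloud, with Lipg far below it, and the uncalled members lie inside it.

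Every list of cell type markers except that of adipocytes held a called gene in the same comparison. Of all 11953 tested rows, 3.11% were called lower and 2.80% higher. Granulocyte precursor markers fell in 4 of 5 tested genes, with a summed level of 4303 FPKM in 4OHT cells and 6168 FPKM in vehicle cells. The exception was Mpo, which was not called and had the higher value after 4OHT, with 603 FPKM in 4OHT cells and 496 FPKM in vehicle cells. Stem and early progenitor markers rose in 4 of 5, with sums of 706 FPKM in 4OHT cells and 477 FPKM in vehicle cells, and Cd34, Kit and Flt3 were above 1 FPKM in both conditions. Those sums include the uncalled Meis1, with 155 FPKM in 4OHT cells and 162 FPKM in vehicle cells, which was also delivered by retrovirus and so does not mark the cell type here. Mast cell and basophil markers rose in 2 of 4 tested, Cpa3 and Gata2, with sums of 1142 FPKM in 4OHT cells and 689 FPKM in vehicle cells. Cpa3 alone had 975 FPKM in 4OHT cells and 562 FPKM in vehicle cells. Mcpt8, with 61.0 FPKM in 4OHT cells and 61.2 FPKM in vehicle cells, and Ms4a2 were not called. Fcer1a and Mcpt4 were not tested, so the list did not move as a whole. Of 7 late neutrophil markers 3 were tested and 2 fell. S100a8 had 1.67 FPKM in 4OHT cells and 10.2 FPKM in vehicle cells, and S100a9 2.92 FPKM in 4OHT cells and 8.86 FPKM in vehicle cells. The other 5 were below 1 FPKM, with the tested Ngp not called and Retnlg at 0 in both conditions. The list sums of 5.54 FPKM in 4OHT cells and 19.9 FPKM in vehicle cells came nearly all from S100a8 and S100a9. Monocyte and macrophage markers fell in 2 of 8 tested and rose in 1, with sums of 268 FPKM in 4OHT cells and 301 FPKM in vehicle cells. Cd68 and Cd14 fell. The riser, Mrc1, was below 1 FPKM in both conditions, with 0.499 FPKM in 4OHT cells and 0.185 FPKM in vehicle cells. Adgre1 (listed as Emr1) was not called and had 129 FPKM in 4OHT cells and 147 FPKM in vehicle cells. The tissue macrophage marker Mertk had 0.0719 FPKM in 4OHT cells and 0.0770 FPKM in vehicle cells. The part of these shifts in the fall of the storage genes was not tested. Of 8 adipocyte markers, 7 were below 1 FPKM, with Lep, Plin1 and Cidec at 0 in both conditions and Adipoq at 0.0542 FPKM in 4OHT cells and 0.0609 FPKM in vehicle cells. The other was Adipor2, an adiponectin receptor that many cell types express, with 79.2 FPKM in 4OHT cells and 88.4 FPKM in vehicle cells, of list sums of 79.5 FPKM in 4OHT cells and 88.7 FPKM in vehicle cells, and it was not called. Of 8 stromal and endothelial markers, 3 were tested, 2 fell and 1 rose, and 6 were below 1 FPKM, among them Lepr, which fell. Pdgfrb rose, with 13.3 FPKM in 4OHT cells and 6.62 FPKM in vehicle cells. Vcam1 fell, with 2.77 FPKM in 4OHT cells and 6.83 FPKM in vehicle cells. The list sums of 16.4 FPKM in 4OHT cells and 14.3 FPKM in vehicle cells thus joined opposite changes.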

How the data were processed

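The RNA sequencing data were deposited as 1 sample per condition, each joining 2 replicates, and the titles do not say at which step these were joined. Per the labels' protocols, the RNA was column-purified and an Illumina TruSeq RNA kit was used. The strand setting and the annotation are not stated in the sources used here. Cuffdiff 2.0.2, Bowtie2 2.0.0.7, CASAVA 1.8.2 and the build mm9 are named, without their roles, in the submitters' processing notes. For each gene the authors deposited the FPKM of either condition, a test statistic (a score of no fixed range), a p-value and a q-value, and a linear fold ratio, per the file headers. The deposited q equals a Benjamini-Hochberg adjustment of the deposited p across the 11953 OK rows, with differences of at most 5.28e-07. A further deposited column marks called rows whose change is 1.5-fold or more, and Soat1 is called without that mark. Which test made the deposited p-values is not known.

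No test of differences was run here. Folds and log2 ratios with a pseudocount of 1 FPKM were computed from the FPKM values with Python 3.11.15 and pandas 2.3.3, and the summary steps were tested on simulated data. Groups were taken from the labels. The table holds no read counts, so depth is unknown and no counting interval is given. The members, the lists of other pathway genes and the markers were chosen with earlier results of these data known. Every member is named, and from the lists of other pathway genes the called genes and the highest gene. Agpat2, Gpam, Pmvk, Mlx and the single markers were chosen after their values were seen, and not every called marker is named. Entries for Msmo1 and Adgre1 were matched by an older symbol. Coordinates are on mm9 as deposited, counted from 1. Promoter sequences are RefSeq entries of GRCm38.p6, a different build, used for letters only. The alternatives tried were other q thresholds, a minimum level or fold, other pseudocounts and other scalings.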

Additional observations from a re-analysis of the deposited data

How the results depend on the processing

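All 9 falls kept their direction under each pseudocount and scaling tried, which is no test of the falls. The same pseudocount added to both values cannot reverse a ratio. Scaling to the same FPKM sum moved the median of the table by about 0.022 log2, less than any called fall. The counts of falls stayed within 1.5 times their value for the whole set and for storage genes at every q threshold, minimum level and minimum fold tried. At q under 0.01, 6 members and among them 5 storage genes were lower. At that threshold fatty acid synthesis had 0 genes lower, sterol efflux and the whole set 0 higher, and 205 rows of the table were higher, against 335 at 0.05. With a minimum of 1 FPKM, again 0 genes of sterol efflux and of the whole set were higher, since Abca1 lies below it. A pseudocount of 5 FPKM brought the storage median to -0.27, because it damps low genes. No paired analysis was possible because each condition has 1 joined value, and for that reason no replicate could be left out. Depth is unknown.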

Other observations

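Of the 51 members, 10 had a deposited locus that overlaps another row, and how reads there were divided is not stated. They were Srebf1, Srebf2, Lss, Fdft1, Scd2, Elovl1, Lipe, Acadvl, Hadha and Hadhb. None of the 10 called members was among them. The locus of Lipe overlaps 4 other rows.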
